A study of Mus musculus with 32 samples.

Results

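The lower part of the mouse small intestine (the intestine was dissected into a top and a bottom part), which holds the ileum, was followed from birth towards weaning in 8 of the 32 RNA-seq libraries of the series, chosen by their tissue label and stage. Total RNA with ribosomal RNA removed was sequenced at postnatal days 1, 5, 10 and 20 (P1, P5, P10 and P20). Each stage had 2 libraries, 1 from a percc1-/- mouse and 1 from a wild type, so that the younger class (P1 and P5) and the older class (P10 and P20) each held 4 libraries and every stage had 1 library per genotype. The percc1-/- mice are homozygous for a deletion of 1512 bp on chromosome 17, engineered in embryonic stem cells (W4/129S6) and leaving 1 loxP site. Both genotypes carried a mixed 129SvEv and C57BL/6 background kept by mating siblings, and no agent or diet is named for any group. The labels do not say whether libraries came from separate animals, so p-values measure the spread between these libraries, which may be partly technical.

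The newborn mouse ileum takes up whole milk proteins by endocytosis and digests them inside its enterocytes, and its brush border carries lactase. Crypts and their Paneth cells, which secrete alpha-defensins and other antibacterial proteins at the crypt base, are laid down in the first weeks after birth. Towards weaning the epithelium turns to sucrase, bile acid recovery and the uptake of free sugars and amino acids, while genes of fetal growth are shut down across the body.

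Values are FPKM, fragments scaled to transcript length and library size, rescaled between libraries. Within a stage the percc1-/- library is given first and the wild-type library second. A log2 change is on the scale of log2(rescaled FPKM + 1), so differences of weakly expressed genes come out too small. A gene is said to rise or fall only where its adjusted p (limma, Benjamini-Hochberg over all 12849 genes tested) was under 0.05. List members outside the first 3 of a list that did not pass, and genes that passed only along a line of age or from P1 to P20, were chosen after their values were seen. Depth was between 7150000 and 11700000 fragments per library, estimated from the deposited bounds of each value. High values were compressed: the highest value of any symbol lay between 66.4 and 132 FPKM, and the top of the distribution of fragments per exonic base (1 in 1000 named records lies above it) lay between 0.698 and 1.05, so differences between abundant enterocyte genes may be understated. The hormone gene Gip separated the labelled genotypes, at 0 to 0.312 FPKM in the 4 percc1-/- libraries and 13.4 to 19.8 in the 4 wild-type libraries. Both P10 libraries carried the female pattern (Xist at 20.1 and 21.2 FPKM, Eif2s3y at 0.058 and 0.0538) and the other 6 the male pattern, so P10 and sex cannot be told apart.

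The older class differed from the younger class in 16 of 12849 genes, or 0.125%, with genotype as a covariate. Of these, 13 rose (0.101%) and 3 fell (0.0233%), and 1750 genes had an unadjusted p under 0.05. The 4 older libraries lay above all 4 younger ones in 543 genes (4.23%) and below all of them in 415 (3.23%). Over all genes the median log2 change was 0.01. The count rested on single libraries: 0 genes passed without wild-type P1, wild-type P5 or percc1-/- P20, while 66 passed without percc1-/- P5, 43 without wild-type P10 and 6 without percc1-/- P1. P20 against P1, a contrast added after the data were seen, gave 50 genes (0.389%), of which 32 rose (0.249%) and 18 fell (0.14%). That count was 458 without percc1-/- P20, 0 without percc1-/- P1 or wild-type P20, and 10 to 21 without each of the other 5 libraries. A straight line on the log2 of postnatal day gave 42 genes (0.327%), 23 rising (0.179%) and 19 falling (0.148%). The class comparison and P20 against P1 shared 11 genes, the line and P20 against P1 shared 15, and the class comparison and the line shared 0.

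Paneth cell genes led the rises. Both near-identical alpha-defensin genes Defa21 and Defa22, the angiogenin gene Ang4 and the secreted phospholipase gene Pla2g2a are on the Paneth list. These 4 genes rose from at most 1.39 FPKM in the younger libraries to between 2.96 and 29.9 in the older ones. Only RNA was measured, and whether Pla2g2a yields an active protein in this mixed background was not tested. Of 19 listed Paneth genes 14 were tested, and these 4 rose between the classes (0.101% of all genes did so). From P1 to P20, 7 rose (0.249% of all genes did so). All 4 older libraries lay above all 4 younger ones for 10 of the 14 (4.23% of all genes did so), and the median log2 change was 2.04. Genes near 0 in the younger class passed the filter on low values through the older class, so these counts describe the tested members only. In bulk tissue fewer cells of a type and less RNA per cell cannot be told apart.

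The promoter stretches of the alpha-defensin genes are shown because these genes moved together. RefSeq holds Gm14850 as Defa37 and Gm14851 as Defa38, and the 150 bases before each annotated start on chromosome 8 (GRCm38.p6) were searched on both strands for ATCAAAG, the core motif of the TCF/LEF factors that carry Wnt signals. The stretches lie at chr8:21025395-21025544 (Defa21, plus strand), chr8:21565236-21565385 (Defa37, plus strand) and chr8:21096051-21096200 (Defa38, minus strand), and capitals mark the matches.
Defa21: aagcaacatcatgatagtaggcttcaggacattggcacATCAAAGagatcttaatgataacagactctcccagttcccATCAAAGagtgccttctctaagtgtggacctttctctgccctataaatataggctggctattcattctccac
Defa37: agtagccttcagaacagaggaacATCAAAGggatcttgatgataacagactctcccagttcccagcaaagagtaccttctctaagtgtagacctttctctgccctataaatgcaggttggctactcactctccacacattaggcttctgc
Defa38: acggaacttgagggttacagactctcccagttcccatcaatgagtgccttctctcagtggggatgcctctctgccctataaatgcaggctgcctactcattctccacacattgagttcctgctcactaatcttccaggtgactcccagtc
The RefSeq windows of Defa21 and Defa22 are identical over all 300 bases, with matches that begin 112 and 72 bases before the start. Defa37 holds 1 match, at 127 bases, and Defa38 holds none in this window. The motif occurs in 591 of 32851 RefSeq promoters of this length (1.80%), and a match is a description of letters, not of a bound site.

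Defa21 (chr8:22165224-22166195, mm9, plus strand) stood at 0.0712 and 0 FPKM at P1, 0.985 and 0 at P5, 12.7 and 10.7 at P10, and 22.8 and 29.9 at P20. Its mean was 0.264 ± 0.482 in the younger and 19 ± 8.98 in the older class (SD, n = 4), a log2 change of 3.94 ± 0.36 (SE, adjusted p = 0.0147). Every older library was above 10 FPKM and every younger one below 1, and percc1-/- P5 was the highest of the younger libraries. Defa22 followed it at 14.4 and 10.7 FPKM at P10 and 23.5 and 29 at P20 (log2 change 3.86 ± 0.36, adjusted p = 0.0147); how fragments were split between these copies is uncertain. Across single libraries left out, the adjusted p of Defa21 lay between 0.0083 and 0.108, under 0.05 in 5 of 8 settings.

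AY761184, another alpha-defensin gene, rose from at most 0.657 FPKM in the younger class to 6.09 and 7.85 at P10 and 15.5 and 28.7 at P20 (log2 change 3.44 ± 0.44, adjusted p = 0.0385). Pla2g2a was listed at 0 in all 4 younger libraries and stood at 10.1 and 2.96 FPKM at P10 and 11.3 and 18.9 at P20 (adjusted p = 0.0387). Ang4 stood at 0.429 and 1.26 FPKM at P1, 0.0727 and 0.596 at P5, 7.11 and 6.67 at P10, and 11.5 and 23.1 at P20 (log2 change 2.93 ± 0.35, adjusted p = 0.031). In these 3 genes no older library reached down to a younger one, and wild-type P20 was the highest of all 8. Defa26, Gm14850, Gm14851, Gm15292 and Gm15308, further alpha-defensin genes, rose from P1 to P20 by log2 changes of 3.95, 4.49, 4.06, 3.29 and 4.66, with adjusted p between 0.0252 and 0.0395. Of the Paneth list's first members, the lysozyme gene Lyz1 stood at 1.89 and 4.202 FPKM at P1, 11.3 and 5.32 at P5, 30.8 and 20.3 at P10, and 39.4 at P20 percc1-/-, with a missing value in wild-type P20, and was not tested. Defa17, whose levels at P1 were already 5.80 and 10.04 FPKM, reached 20.7 and 23.3 at P20 and did not pass (adjusted p = 0.251).

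**Figure D1:**
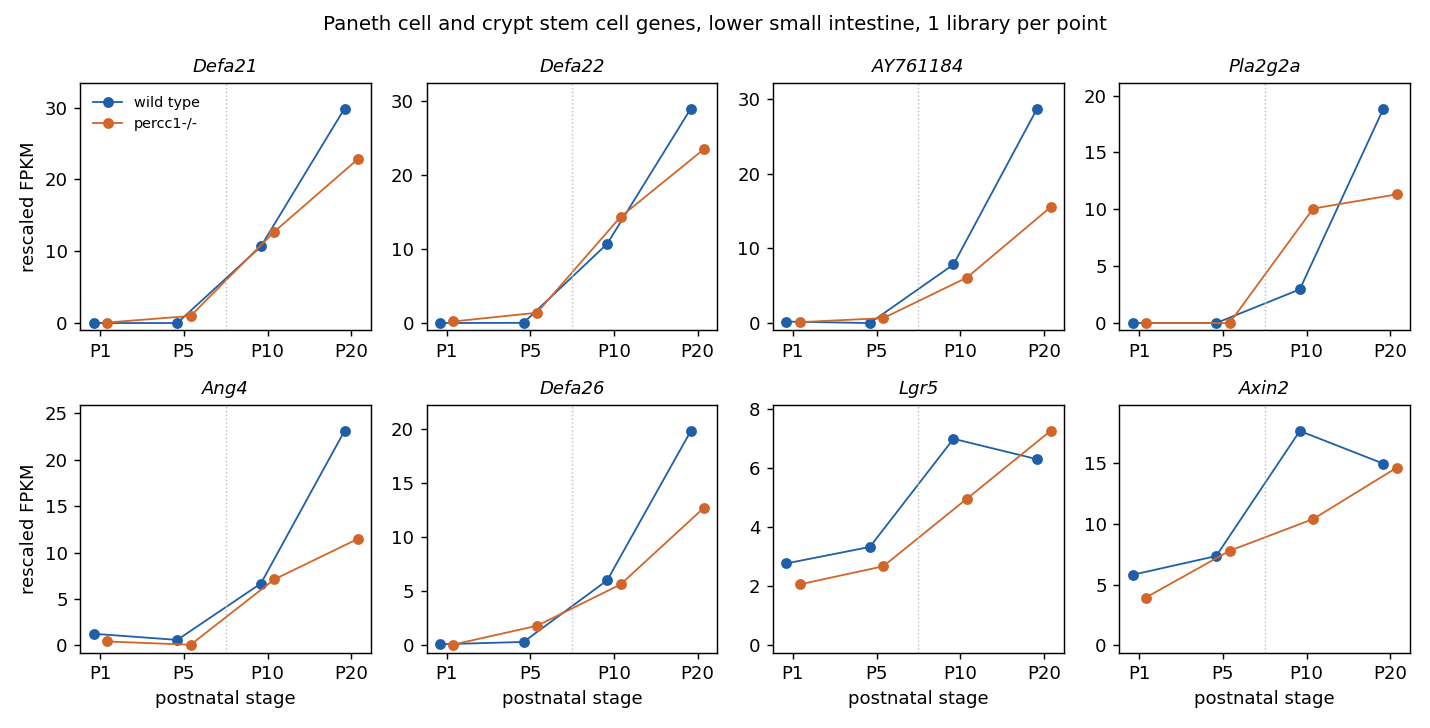
Rescaled FPKM (vertical axes, linear) of 6 Paneth cell and 2 crypt stem cell genes against postnatal stage, with 1 point per library, blue for wild type and orange for percc1-/-; the dotted line divides the younger from the older class. The 6 Paneth genes lie below 2 FPKM at P1 and P5 and at 2.96 or more at P10 and P20, while Lgr5 and Axin2 start at 2.07 FPKM or more.

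Markers of other tissues were summed in each library, and no member of the stomach or pancreas list passed any comparison. Sycn, a gene of pancreatic zymogen granules that is in neither list, passed the comparison with the upper small intestine given below. The summed level of 14 stomach genes, of which 10 were tested and 4 stayed under 1 FPKM in all 8 libraries, was 17.1 and 7.80 FPKM at P1, 58.4 and 9.66 at P5, 38.2 and 51.3 at P10, and 60.4 and 63 at P20. Of 22 exocrine pancreas genes, 20 had a value in all 8 libraries and were summed. Their sum was 14.7 to 22.1 FPKM in the younger and 23.6 to 39.1 in the older libraries, with 13 of the 20 under 1 FPKM in all 8. The part of stomach and pancreas tissue in the results here was not tested. The sum of 10 enterocyte genes was 336 to 470 FPKM in the younger and 297 to 560 in the older libraries.

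Stem cell genes of the crypt base had no call between the classes (0 of 15 tested). For 7 of the 15 all older libraries lay above all younger ones (4.23% of all genes did so), and the median log2 difference was 0.59. Lgr5, a receptor that marks crypt base stem cells, stood at 2.07 and 2.78 FPKM at P1, 2.68 and 3.34 at P5, 4.97 and 7.01 at P10, and 7.27 and 6.31 at P20 (log2 difference 0.99 ± 0.16, adjusted p = 0.0899). Olfm4, a secreted stem cell glycoprotein, was at 14.1 to 24.1 FPKM in the younger and 29.6 to 34.9 in the older libraries (adjusted p = 0.15). Both were separated completely between the classes without passing the threshold. Axin2, a direct target of Wnt signalling, rose along the line on log2 day by 0.36 ± 0.06 per doubling of age (adjusted p = 0.0498), from 3.94 and 5.80 FPKM at P1 to 14.6 and 14.9 at P20. Ascl2, a stem cell transcription factor, was at 0.481 to 1.69 FPKM in the younger and 1.91 to 3.10 in the older libraries (adjusted p = 0.217). Proliferation genes did not follow: 24 of 25 listed cell cycle genes were tested, 0 passed, and their median log2 difference was 0.08, with Mki67 at 13.4 to 19.8 FPKM in the younger and 15.5 to 22.4 in the older class.

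Among goblet cell genes 11 of 16 were tested and 0 passed between the classes (median log2 difference 0.40). Zg16, a mucus lectin that aggregates bacteria, rose from P1 to P20, at 5.86 and 6.01 FPKM at P1, 2.62 and 1.30 at P5, 26.1 and 12.3 at P10, and 47.5 and 54.5 at P20 (log2 change 2.90, adjusted p = 0.0252). Its older libraries all lay above its younger ones, and P5 was its lowest stage. The trefoil factor gene Tff3 (27.4 to 39.3 FPKM in the younger, 31.5 to 48 in the older class) and the disulfide isomerase gene Agr2 (19.9 to 35.2 and 26 to 47.5) overlapped between the classes. So did the chloride channel regulator gene labelled Clca1 (3.15 to 11.4 and 3.40 to 8.73 FPKM), at chr3:144392641-144423941 (mm9). The list took Clca1 and Clca3 as alternative symbols of 1 gene, so the gene labelled Clca1 here may be a relative of the goblet cell gene.

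The remaining genes that rose between the classes had varied roles. Apol10a, an apolipoprotein L gene, rose from 0.197 and 0.395 FPKM at P1 and 0.358 and 0.66 at P5 to 5.85 and 8.84 at P10 and 12.7 and 31.4 at P20 (log2 change 3.24 ± 0.39, adjusted p = 0.031). Rdh7, a retinol and steroid dehydrogenase gene, rose from 0.242 to 0.485 FPKM in the younger libraries to 4.77 and 5.85 at P10 and 11.6 and 5.04 at P20 (log2 change 2.45 ± 0.25, adjusted p = 0.0261). Dnase1, the secreted deoxyribonuclease, went from 6.04 ± 0.533 to 19 ± 4.61 FPKM (SD, n = 4 each; log2 change 1.48 ± 0.18, adjusted p = 0.031). For each of these 3 genes the classes did not overlap. Among the other called genes were Tstd1, a sulfurtransferase gene (2.10), Edn2, an endothelin gene (1.51), Prkcq, a protein kinase C gene (1.41), and Gm16023, a gene of undescribed function (2.16), which was listed at 0 in all 4 younger libraries and lay between 2.60 and 4.02 FPKM in the older ones.

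The 3 genes that fell between the classes included a regulator of early development. Trim71 (chr9:114420393-114473487, mm9, minus strand), an RNA-binding ubiquitin ligase repressed by let-7 microRNAs, stood at 3.18 and 3.38 FPKM at P1, 4.32 and 2.88 at P5, 0.0691 and 0.824 at P10, and 0 and 0.0132 at P20 (log2 change -1.90 ± 0.24, adjusted p = 0.0385). The older libraries were all under 1 FPKM and the younger ones all above 2, and with each of the 8 libraries left out in turn its adjusted p lay between 0.0117 and 0.203, under 0.05 only without percc1-/- P5 or wild-type P10. The known let-7 link is shown by sequence, with the microRNA's seed (bases 2 to 8) and its match in the transcript in capitals.
let-7a: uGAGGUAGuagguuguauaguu
Trim71 first site: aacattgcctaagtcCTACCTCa
Trim71 second site: agtgataatttctatCTACCTCa
The sites begin their match at bases 166 and 262 of the 1370 bases annotated after the Trim71 stop codon (GENCODE vM1 on mm9), and the mature microRNA is from RefSeq. A match to CTACCTC on the transcript strand occurs in 1917 of 19915 annotated genes (9.63%), and microRNAs were not measured here. Abhd5, which activates the main triglyceride lipase of cells, fell from 13.4 and 14.7 FPKM at P1 and 17.6 and 13.6 at P5 to 7.08 and 7.37 at P10 and 8 and 5.79 at P20 (log2 change -0.97 ± 0.13, adjusted p = 0.0399). The third gene that fell, 1700023E05Rik, has no described role and went from 4.02 to 4.83 FPKM in the younger to 0.0795 to 0.996 in the older libraries (adjusted p = 0.031).

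Of the 13 genes listed around the fetal RNA-binding protein Lin28, 9 were tested, and Trim71 alone passed between the classes. Lin28b and Lin28a, which block let-7 maturation, were at most 0.110 and 0.0581 FPKM in any of the 8 libraries. The list's median log2 difference was -0.38. Igf2bp3 (16.6 to 23.8 FPKM in the younger, 11 to 15 in the older class, adjusted p = 0.24), a fetal RNA-binding protein gene, was separated without passing, and Hmga2, a fetal chromatin gene (3.46 to 4.87 and 2.53 to 3.79, adjusted p = 0.418), overlapped. Afp, the fetal serum protein alpha-fetoprotein, fell from P1 to P20: 23.3 and 46.7 FPKM at P1, 13.7 and 35 at P5, 2.58 and 15 at P10, and 1.45 and 2.10 at P20 (log2 change -3.63, adjusted p = 0.0254). At all 4 stages the wild-type library was the higher one, and wild-type P10 lay above percc1-/- P5. Afp is abundant in liver before birth. Of 15 listed liver genes, 12 had a value in all 8 libraries and were summed. Their sum was 22.2 and 52.5 FPKM at P1, 35.6 and 35 at P5, 15.5 and 19.2 at P10, and 13.6 and 3.79 at P20. Of the 12, 4 stayed under 1 FPKM in all 8 libraries. The part of liver tissue in the fall of Afp was not tested.

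Of 20 listed imprinted genes of fetal growth 16 were tested, 0 passed between the classes and 3 fell from P1 to P20 (0.14% of all genes did so). Of the 16, 7 lay lower in every older library than in every younger one (3.23% of all genes did so), and the median log2 difference was -0.67, against 0.01 over all genes. Igf2 (chr7:149836673-149852721, mm9, minus strand), the fetal insulin-like growth factor, stood at 30.7 and 31.4 FPKM at P1, 19.1 and 24.5 at P5, 10.2 and 12.6 at P10, and 8.25 and 5.04 at P20. It fell from P1 to P20 by 2.10 on the log2 scale (adjusted p = 0.0364) and along the line by 0.48 per doubling of age (adjusted p = 0.0489). Each later stage lay below both libraries of the stage before. Plagl1, a zinc finger regulator of the imprinted network, fell from 21.8 and 21.7 FPKM at P1 to 17.1 and 14.6 at P5, 9.27 and 11.5 at P10, and 4.33 and 2.92 at P20 (log2 change -2.31, adjusted p = 0.0194). Grb10, an adaptor that restrains insulin signalling, fell from 20.4 and 18.6 to 7.48 and 8.42 FPKM (log2 change -1.20, adjusted p = 0.04). The antisense gene Igf2as also fell (log2 change -3.27, adjusted p = 0.0252); no source used here says whether counting used strand, so its reads may include those of Igf2. Peg3as, antisense to the imprinted Peg3, went the other way: it was listed at 0 up to P10 and stood at 7.40 and 4.54 FPKM at P20 (log2 change 2.77, adjusted p = 0.0252). The same doubt about strand holds for Peg3as, a listed 0 can be a failed estimate, and its call was lost in 8 of 11 alternative settings.

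The other imprinted genes described had no call. Mest stood at 19.7 and 21.9 FPKM at P1, 15.3 and 18.6 at P5, 10.5 and 10.7 at P10, and 3.24 and 0 at P20 (P20 against P1, adjusted p = 0.0656). Cdkn1c, an inhibitor of cell division, was at 29.8 to 32.9 FPKM in the younger and 11.9, 21.7, 18.5 and 4.45 in the older libraries (adjusted p = 0.225). Dlk1, a Notch-like growth regulator, stood at 1.61 to 4.82 and 0.147 to 2.11 FPKM and overlapped between the classes.

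**Figure D2:**
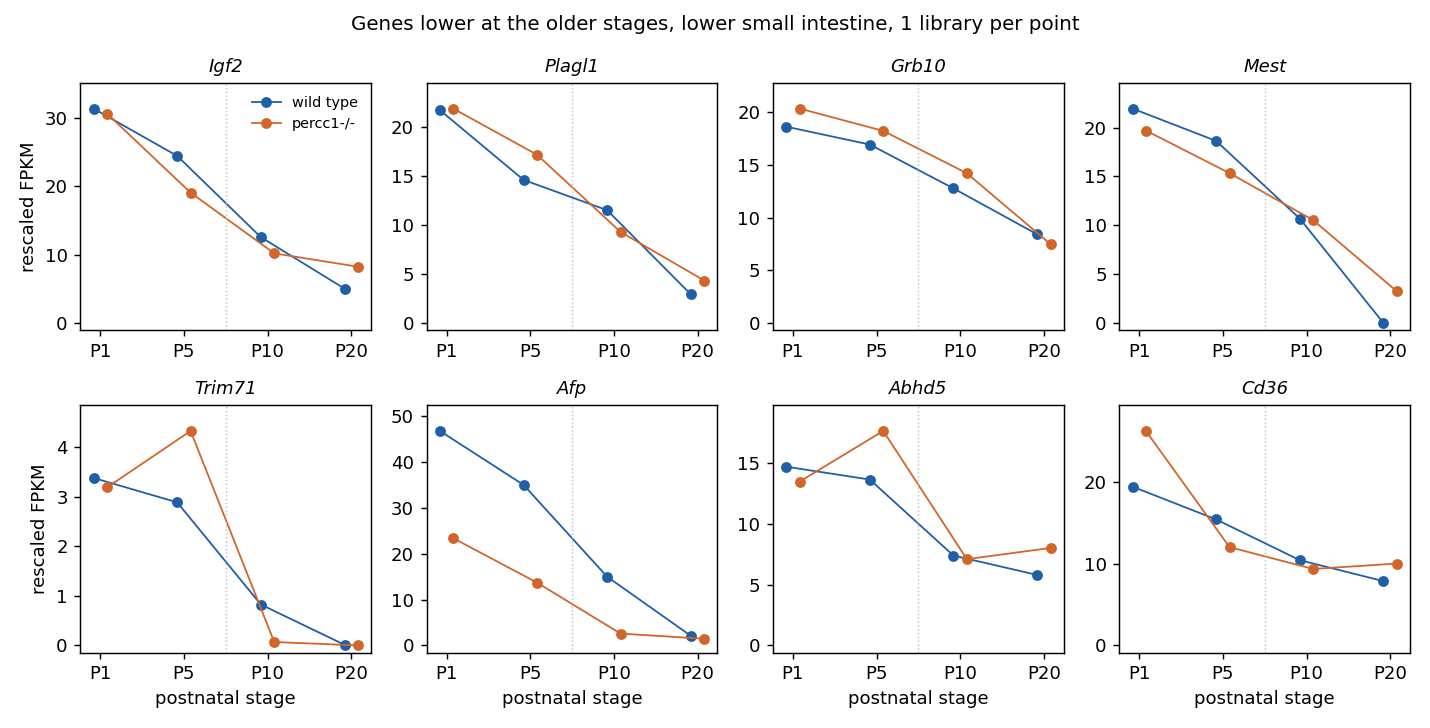
Rescaled FPKM (vertical axes, linear) of 8 genes against postnatal stage, with 1 point per library, blue for wild type and orange for percc1-/-, and a dotted line between the classes. Igf2, Plagl1, Grb10 and Mest step down at each stage, while Trim71 and Abhd5 drop between P5 and P10 and the genotypes stand apart in Afp.

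Further genes that fell from P1 to P20 belong to no single list and were chosen after their values were seen. Abcb11, the bile salt export pump, stood at 6.16 and 7.64 FPKM at P1, 0.32 and 1.37 at P5, and at most 0.34 in the older libraries (log2 change -2.91, adjusted p = 0.0252). Slc37a2, a sugar phosphate exchanger gene, fell from 10.6 and 8.19 at P1 to 0.935 and 0.624 at P20 (adjusted p = 0.0265). Rab30, a Golgi GTPase gene, fell from 56 and 26.3 to 16.7 and 5.79 FPKM, and Sec22b, a vesicle fusion gene, from 40.3 and 36.9 to 17.2 and 16.6 (adjusted p = 0.0252 and 0.04). Dhrs9, a retinol dehydrogenase gene, fell by 1.87 on the log2 scale (adjusted p = 0.0257), from 14.47 and 7.78 FPKM to 3.69 and 1.16.

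No disaccharidase gene passed, and the highest levels of Sis, Treh and Mgam were at P20. Sis, coding for sucrase-isomaltase, stood at 1.196 and 1.84 FPKM at P1, 1.82 and 1.34 at P5, 15 and 2.38 at P10, and 45.3 and 57.5 at P20 (log2 difference P20 against P1 4.38, adjusted p = 0.0543). At P10 the wild-type library was still within 2 FPKM of the younger ones while the percc1-/- library was not, and both P20 libraries were far above all others. Trehalase, coded by Treh, was at most 0.317 FPKM up to P5, at 2.65 and 0 at P10, and at 7.83 and 16.9 at P20 (adjusted p = 0.0817). The maltase-glucoamylase gene Mgam was at 38 to 76.4 FPKM in the younger libraries, 44.7 and 59.2 at P10 and 93.1 and 102 at P20 (adjusted p = 0.373). Of 16 tested enzymes of the weaned enterocyte, 0 passed between the classes and Khk, the fructose-phosphorylating ketohexokinase, rose from P1 to P20 (12 and 12.6 to 28.8 and 32.6 FPKM, log2 change 1.25, adjusted p = 0.0453). The median log2 step of the 16 was -0.20 from P1 to P5, -0.08 from P5 to P10 and 0.92 from P10 to P20, beside 0.01, 0.01 and -0.03 over all genes. Mlxipl, the carbohydrate-responsive transcription factor ChREBP, also rose from P1 to P20, from 6.14 and 6.58 to 24.5 and 19 FPKM (log2 change 1.62, adjusted p = 0.0364), having stood at 9.88 and 12.1 at P10.

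Lactase and the other suckling enzymes showed no call in either direction (12 of 15 tested, median log2 difference -0.50). Lct was at 43.3 and 43.3 FPKM at P1, 27 and 43.3 at P5, 23.6 and 33.3 at P10, and 40.1 and 35.5 at P20, and its classes overlapped through percc1-/- P5. Fbp1, of gluconeogenesis, was at 33.2 and 36.1 FPKM at P1 and 26.8 and 8.54 at P20. Ass1, which makes argininosuccinate for arginine synthesis, was at 26.4 and 31.5 FPKM at P1, 22.6 and 33.8 at P5, 14.48 and 21.5 at P10, and 18 and 5.93 at P20 (log2 difference -0.999 ± 0.35, adjusted p = 0.272). Arg2, the mitochondrial arginase whose appearance marks the weaned gut, was listed at 0 in all 4 younger libraries and in wild-type P10, and stood at 5.11 in percc1-/- P10 and 7.57 and 17 at P20 (adjusted p = 0.227). In both Sis and Arg2, wild-type P10 ranged with the younger class.

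**Figure D3:**
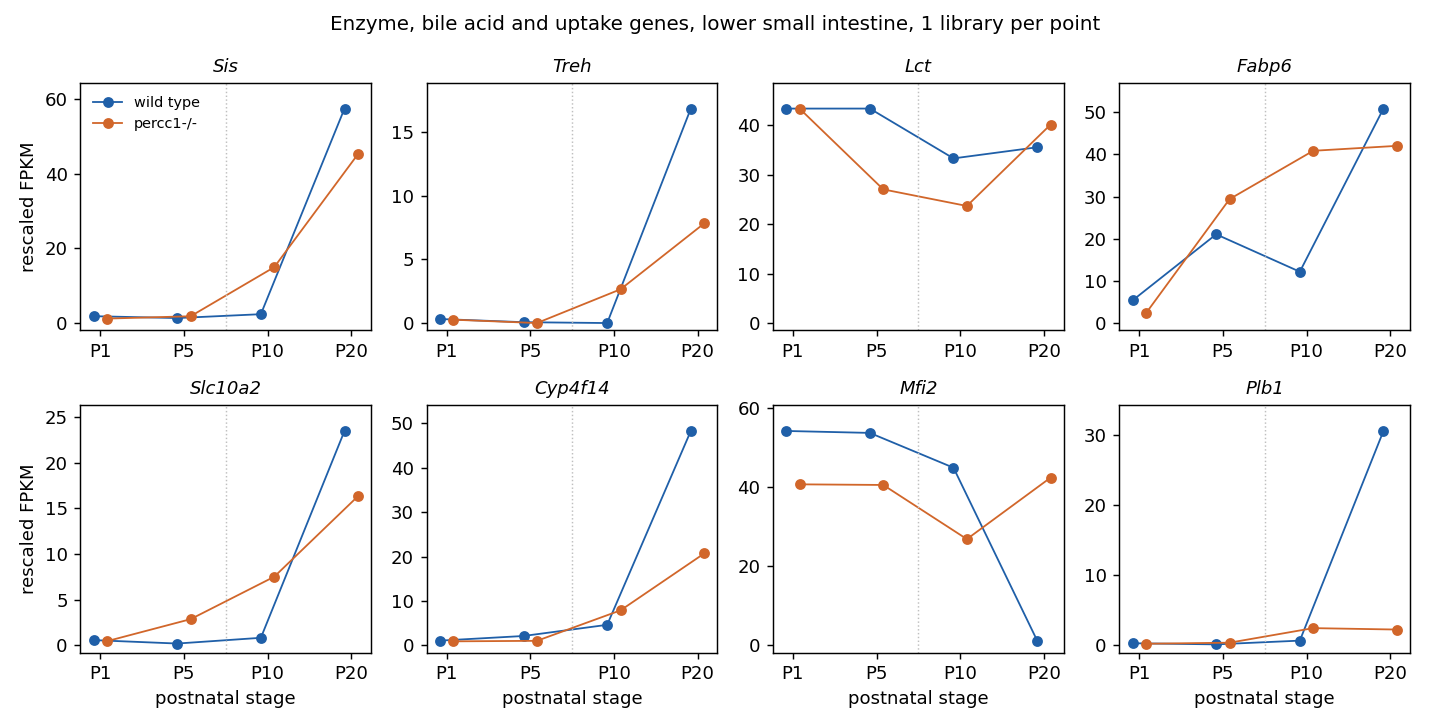
Rescaled FPKM (vertical axes, linear) of 8 absorptive genes against postnatal stage, with 1 point per library, blue for wild type and orange for percc1-/-, and a dotted line between the classes. Sis, Treh, Slc10a2 and Cyp4f14 are highest at P20 in both genotypes, whereas at P20 Mfi2 is at 42.4 FPKM in the percc1-/- library and 1.24 in the wild type, and Plb1 at 2.26 and 30.6.

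Of the endocytic apparatus for milk proteins 18 of 20 members were tested, 0 passed between the classes, and the median log2 difference was -0.32. In all older libraries 2 members lay higher and 2 lower (4.23% and 3.23% of all genes did so). The receptor gene Cubn was at 17.5 to 39.4 FPKM in the younger and 18.4 to 44.5 in the older libraries, its partner Amn at 20.1 to 28.9 and 14 to 24.4, and the adaptor Dab2 at 18.7 to 32 and 9.49 to 22.2. The P20 libraries stood apart in several uptake genes, named here after their values were seen. Ctsl, a lysosomal protease gene, was at 43.3 FPKM in percc1-/- P20 and 12.3 in wild-type P20, with 31.8 to 45.4 in the younger class. Fcgrt, the neonatal receptor that carries milk antibodies across the epithelium, was at 47.7 and 19.6 FPKM, with 43.9 to 62.4 in the younger class. Mfi2, coding for the iron-binding protein melanotransferrin, was at 42.4 and 1.24 FPKM, with 40.6 to 54.2 in the younger class. In these 3 genes percc1-/- P20 stood within or near the younger range and wild-type P20 below it. Plb1, a brush border phospholipase gene, was at 2.26 and 30.6 FPKM at P20 and at most 0.389 in the younger class, so that wild-type P20 was the high library. With 1 library per genotype and stage, genotype and animal cannot be told apart within P20.

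Bile acid recovery genes were uneven, with 0 of 9 tested members passing (median log2 difference 0.11). Slc10a2, the apical sodium and bile acid transporter of the ileum, stood at 0.466 and 0.583 FPKM at P1, 2.88 and 0.207 at P5, 7.52 and 0.836 at P10, and 16.3 and 23.5 at P20 (P20 against P1, log2 difference 3.76, adjusted p = 0.0752). The ileal bile acid binding protein gene Fabp6 stood at 2.31 and 5.36 FPKM at P1, 29.4 and 21 at P5, 40.8 and 12.2 at P10, and 42 and 50.9 at P20 (log2 difference 3.36, adjusted p = 0.0656). Fabp6 stood higher at P5 than at P1 in both genotypes and Slc10a2 in the percc1-/- libraries only, and neither step passed. Fgf15, the hormone by which the ileum restrains hepatic bile acid synthesis, stood at 0.264 and 11 FPKM at P1 and 16.8 and 8.70 at P20, and its classes overlapped. Abcc3, a basolateral exporter of bile acid conjugates, was at 2.21 to 3.72 FPKM in the younger and 6.02 to 9.22 in the older libraries with no overlap (log2 difference 1.19, adjusted p = 0.0899). The bile acid receptor gene Nr1h4 stayed at 20.4 to 41.7 and 21.4 to 36 FPKM.

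Of 22 genes of fat uptake 22 were tested, 0 passed between the classes and 5 lay below all younger libraries (3.23% of all genes did so). The median log2 difference between the classes was -0.29, while the median step from P10 to P20 was 0.34 and the median from P1 to P20 was -0.17. Mttp, which loads lipid onto apolipoprotein B, stood at 123 and 62.5 FPKM at P1, 52.1 and 53.3 at P5, 36.6 and 31 at P10, and 42.8 and 40.6 at P20 (adjusted p = 0.225). Its older libraries all lay below its younger ones, whereas those of the apolipoprotein gene Apoa4 (68.8 to 82.9 and 53.8 to 70.9 FPKM) overlapped. Cd36, a fatty acid receptor gene, fell along the line by 0.30 per doubling of age (adjusted p = 0.0478), from 26.2 and 19.4 FPKM at P1 to 12 and 15.4 at P5, 9.35 and 10.4 at P10, and 10.01 and 7.86 at P20. Apob was at 37 to 55.8 and 36.1 to 52.1 FPKM. Of 14 tested genes of fatty acid oxidation and ketogenesis 0 passed (median -0.28): Cpt1a, the entry step of mitochondrial oxidation, was at 27.4 to 34.1 FPKM in the younger and 19.8 to 26.5 in the older libraries.

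Drug and steroid metabolism genes rose in single members. Cyp4f14, a fatty acid hydroxylase gene, stood at 0.92 and 1.07 FPKM at P1, 1.04 and 2.12 at P5, 7.90 and 4.64 at P10, and 20.7 and 48.2 at P20 (P20 against P1, log2 change 4.03, adjusted p = 0.0252). Cyp3a25, a steroid and drug hydroxylase gene, rose from 1.02 and 0.203 FPKM to 24.1 and 10.3 (log2 change 3.43, adjusted p = 0.0252; along the line 0.79 per doubling, adjusted p = 0.0478). The classes of both did not overlap. Cyp3a11 was under 0.5 FPKM up to P10 and at 2.55 and 5.83 at P20 (adjusted p = 0.0641), while Cyp3a13 was at 16 to 32.5 and 14 to 41.3 FPKM. Outside the list, Cyp4v3, another fatty acid hydroxylase gene, rose from 2.04 and 1.26 to 12.7 and 25.8 FPKM (adjusted p = 0.04), and Adh6a, an alcohol dehydrogenase gene, from 1.78 and 0.483 to 18.3 and 20.2 (adjusted p = 0.0491). Of the 30 listed genes 22 were tested, 4 lay higher in every older library (4.23% of all genes), and the median log2 difference was 0.16.

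Of 19 tested sugar, peptide and amino acid transporter genes 0 passed between the classes, 0 along the line and 1 from P1 to P20 (median log2 difference 0.07), and of 20 tested salt and water transport genes 0, 1 and 0 (median 0.19). The genes named next were chosen for their calls, inside and outside these lists. Slc5a8, a carrier of lactate and short-chain fatty acids, stood at 0.459 and 4.87 FPKM at P1, 3.72 and 5.77 at P5, 8.63 and 12.7 at P10, and 18.4 and 24.2 at P20 (0.66 per doubling, adjusted p = 0.0478). Slc6a14, a broad amino acid transporter gene, went from 0.157 and 1.96 to 14.48 and 11.8 FPKM, and Slc9a2, a sodium and proton exchanger gene, from 2.15 and 2.73 to 17.7 and 16.4, both with adjusted p = 0.0478 along the line. Slc1a1, the epithelial glutamate transporter, rose from P1 to P20 from 1.06 and 1.94 to 12.3 and 18.8 FPKM (adjusted p = 0.0364). Kcnn4, a potassium channel gene, and Clca4, a chloride channel regulator gene, rose along the line by 0.68 and 0.42 per doubling (adjusted p = 0.0488 and 0.0478). The sugar transporter genes Slc2a5 (1.34 to 6.09 and 1.49 to 9.52 FPKM), Slc5a1 (19.6 to 33.9 and 17.5 to 52.5) and Slc2a2 (8.20 to 21.4 and 6.20 to 23.7) overlapped between the classes, each with its highest value in wild-type P20. The main sodium exchanger of the list of salt and water transport, Slc9a3, was at 14.1 to 31.6 and 14.3 to 23.1 FPKM.

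Of 30 regulators of maturation 30 were tested and 0 passed between the classes (median log2 difference 0.05). Vdr, the vitamin D receptor, rose from P1 to P20: 5.59 and 7.73 FPKM at P1, 7.98 and 9.19 at P5, 9.94 and 9.52 at P10, and 28.9 and 27.6 at P20 (log2 change 1.95, adjusted p = 0.021). Its values lay within 5 FPKM of each other up to P10 and both P20 libraries stood apart. Prdm1, the repressor that holds back the adult program in suckling enterocytes, was at 8.67 to 15 FPKM in the younger class and at 9.04, 16.5, 8.92 and 3.27 in the older libraries (adjusted p = 0.687), with wild-type P20 the lowest. Maf, a transcription factor of the suckling enterocyte, was at 15.6 to 24.4 and 15.3 to 21.8 FPKM and overlapped. Hnf4a (29.6 to 36.9 and 31.6 to 47 FPKM) and Cdx2 (17.1 to 23.5 and 20.1 to 29.3), which specify intestinal epithelium, overlapped between the classes.

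No immune list held a call, and the lists differed in direction. For 5 of 14 tested genes of antigen presentation all older libraries lay above all younger ones (4.23% of all genes did so), and the median log2 difference was 0.46. For T and NK cell genes (6 of 17 tested) the median was 0.22, for macrophage and dendritic cell genes (10 of 14) it was -0.02, with -0.65 from P10 to P20, and for neutrophil and mast cell genes (6 of 15) it was 0.21, with -1.19 from P10 to P20. H2-Eb1, a class II chain, stood at 4.36 and 7.53 FPKM at P1, 6.39 and 10.4 at P5, 11.4 and 13.8 at P10, and 10.9 and 13.2 at P20 (adjusted p = 0.15), and the chaperone gene H2-DMb2 at 0.683 to 1.54 and 2.61 to 6.91 (adjusted p = 0.0595). Ciita, the class II transactivator, was at 0.711 to 2.21 FPKM in the younger and 2.75 to 5.95 in the older libraries. Of 14 B and plasma cell genes 7 were tested (median log2 difference 1.15): Cd79b, of the B cell receptor, was at 0.349 to 1.09 and 1.15 to 5 FPKM, and the antibody joining chain gene Igj at 0.0597 to 0.181 and 0.401 to 5.73. The bactericidal lectin gene Reg3g varied within stages, at 22.1 and 3.18 FPKM at P1, 40.3 and 34.9 at P5, 73.9 and 9.34 at P10, and 50.2 and 115 at P20 (adjusted p = 0.569). Neutrophil genes S100a8 and S100a9 were highest in percc1-/- P5, at 15.8 and 17.2 FPKM, and percc1-/- P10, at 9.14 and 11.2. Collagen genes overlapped between the classes (22 of 22 tested, 0 passed, median 0.13), with the collagen gene Col1a1 at 19.7 and 30.8 FPKM at P1 and 37.3 to 41.1 in the 6 later libraries.

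**Figure D4:**
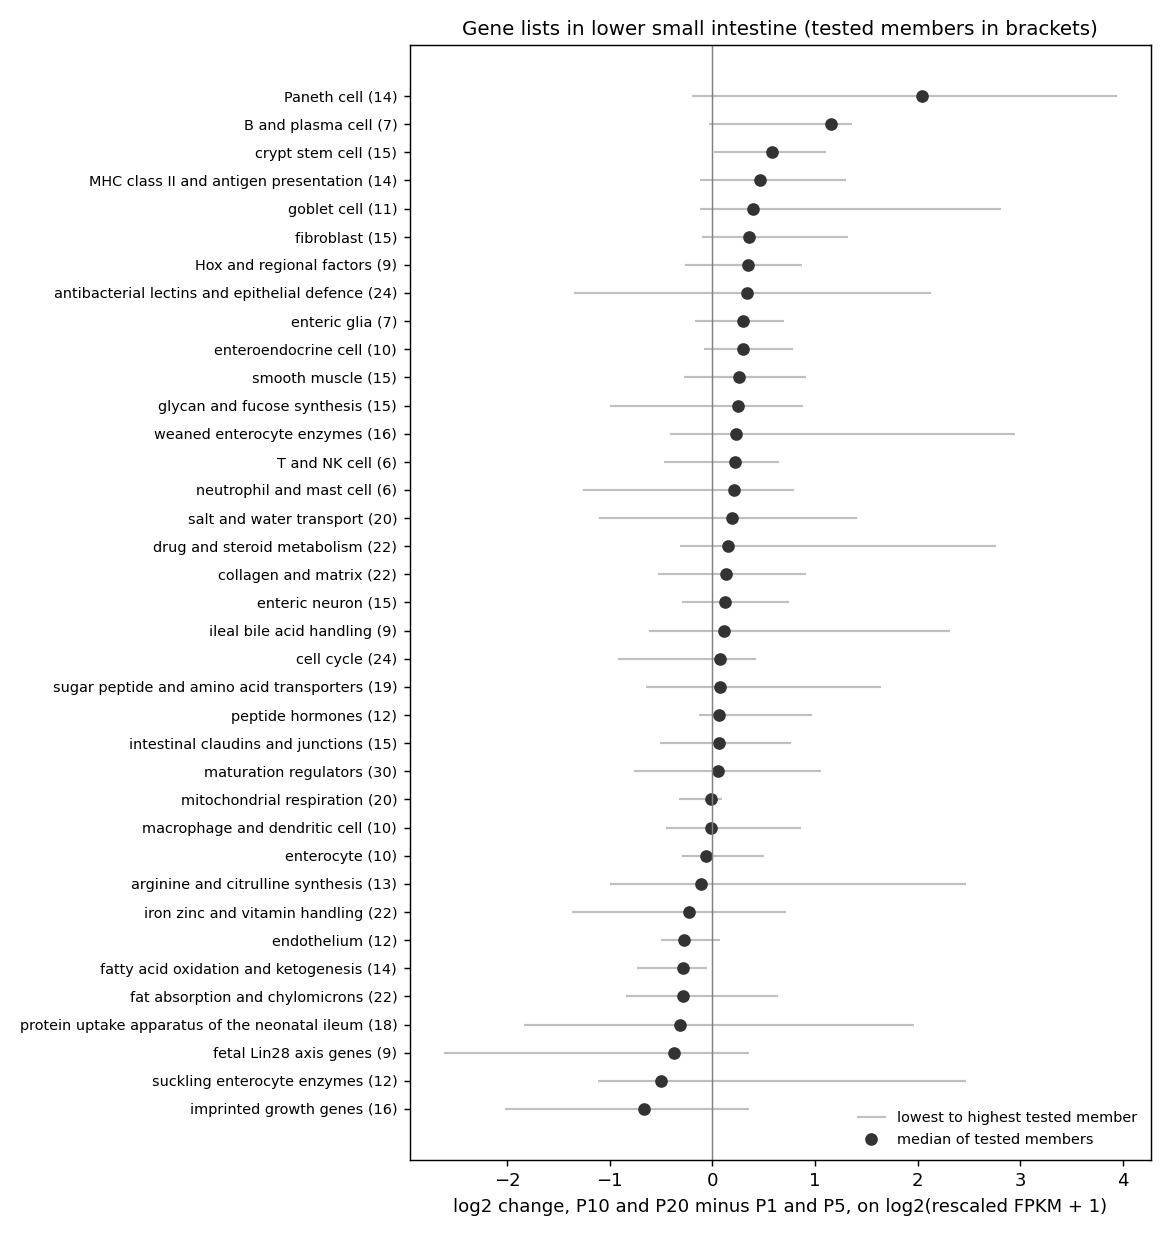
Median log2 change between the classes (horizontal axis, on log2(rescaled FPKM + 1)) for each process or cell type list with at least 5 tested members (vertical axis, number tested in brackets). Dots are medians and grey lines run from the lowest to the highest tested member. Lists of other tissues, such as stomach (median 0.943 over 10 tested genes), are not drawn. The Paneth list lies furthest to the right, at 2.04, and the imprinted list furthest to the left, at -0.67.

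Single steps gave few calls. From P1 to P5, 2 of 12849 genes passed (0.0156%), from P5 to P10, 4 (0.0311%), and from P10 to P20, 4 (0.0311%), with unadjusted p under 0.05 for 815, 619 and 1323 genes. Xist and the Y-linked genes Eif2s3y and Kdm5d account for 3 of the 4 at each step into and out of P10, which is the sex difference noted above. The fourth at both steps, 2310033P09Rik, was listed at 0 at P5 and P20 and stood at 5.93 to 7.70 FPKM at P1 and P10. It and Mfsd4, a transporter-like gene listed at 0 at P1 and at 5.19 to 10.6 FPKM later, were the 2 genes of the first step. A listed 0 in these tables can be a failed estimate. No gene with a mean of at least 10 FPKM at P5 was at least 2 times every library of the other stages, and Xist was the only such gene at P10.

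The age change did not differ between genotypes in any of 12849 genes by limma (0 called, 0%), and 297 had an unadjusted p under 0.05. The smallest p-values belonged to Dnajc19, Mir1938, Strbp, Trim12a and Trim30d. Trim30d, a tripartite motif gene, stood at 0.201 and 13.6 FPKM at P1, 0.117 and 9.18 at P5, 6.81 and 15.4 at P10, and 12.6 and 9.12 at P20. It was near 0 only in the 2 younger percc1-/- libraries, as Dnajc19, a mitochondrial import gene, was listed at 0 in them and stood at 17.4 to 24.6 FPKM in the younger wild types. The line is of mixed background, and its part in these values was not tested.

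Against the upper part of the small intestine (6 libraries, at P1, P5 and P15), the age change differed in 2 of 12733 genes (0.0157%), with 866 at an unadjusted p under 0.05; the older upper stage was P15 rather than P10 and P20, so region and age cannot be fully told apart. Selm, a selenoprotein gene, was at 8.40 to 19.8 FPKM in all 8 lower libraries and at 11.1 to 14 in the 4 younger upper ones. It was listed at 0 in both P15 libraries (difference of the changes 3.96 ± 0.32, adjusted p = 0.000311). A listed 0 can be a failed estimate, which was not tested for Selm. Sycn, a gene of pancreatic zymogen granules, was at 2.83 to 7.65 FPKM in the younger and 0.154 and 0.402 in the older upper libraries, and at most 0.423 in the lower ones (2.61 ± 0.33, adjusted p = 0.0253). For the Paneth list the median log2 change over the genes tested in both regions was 2.88 in the lower and 1.30 in the upper intestine. These genes first had to pass the filter on low values in the lower libraries, which favours the lower part. The 2 medians therefore describe the chosen genes only and were not tested against each other. Defa21 reached 0.535 and 3.66 FPKM in upper P15 against 10.7 or more in each older lower library, and the difference of its changes did not pass (adjusted p = 0.548). Trim71 was at 1.30 to 3.44 FPKM in the younger upper libraries and 0.0575 and 0.0165 at P15, and Igf2 at 19.1 to 33.1 and 10.3 to 10.8, with differences between the regions that did not pass (adjusted p = 0.922 and 0.92).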

How the data were processed

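Total RNA libraries of the lower small intestine were compared by stage; groups came from the tissue, stage and genotype in the labels. The authors deposited, per the file headers, 1 Cufflinks table for every library, in which each record has its FPKM value and 2 bounds. TopHat2 2.0.13, SAMtools 0.1.18, Cufflinks 2.2.1 and mm9 are named in the submitters' processing notes; annotation, strand setting and treatment of duplicates are not named in any source used here. Records with a symbol, which held 19.8% to 30.6% of the FPKM sum, were summed by symbol, and symbols with a failed or merged record were set to missing. Of 23235 symbols 21768 had a value in all 8 libraries and 12849 had a mean of at least 1 FPKM.

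Libraries were rescaled by median ratios (factors 0.882 to 1.1). Tests used limma 3.58.1 in R 4.3.3 on log2(rescaled FPKM + 1) with a trended, robust variance prior, two-sided, with Benjamini-Hochberg adjustment over all tested genes. The class and slope models had genotype as a covariate, a stage model gave the steps, and further models gave the interactions with genotype and with region. In simulated data 100 genes were changed by a log2 of 1 and 100 by a log2 of 2 among 12849. The class test recovered 69 and 95 of them, with 10 false calls, and the test of the genotype interaction 5 and 54. The step from P10 to P20, simulated in the same way, gave 37 and 81, with 6 false calls. Noise was drawn independently for each library, so single libraries that stand apart, as seen in these data, were not simulated. The changed genes were drawn only from those with a mean of at least 10 FPKM, so recovery of weaker genes was not simulated. Fragment numbers were estimated from the bounds, so no counting interval is given.

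The genes named were the called genes, the first 3 members of each list and up to 6 called members, and the smallest p-values where none was called. The members, the 47 gene lists and P20 against P1 were chosen with earlier results of these data known. Some genes that meet the rule are not reported here. Sequences are from RefSeq (GRCm38.p6) and from GENCODE vM1 on mm9. Alternatives covered the pseudocount (0.1), the filter (mean of 5, or none), rescaling, covariates, libraries and stages left out, the ceiling on high values and genes listed at 0. Python 3.11.15 was used for tables and figures.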

Additional observations from a re-analysis of the deposited data

Results flagged for a closer look

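Within a class of 4 libraries, 11 of 98 groups examined held a library whose gap to the nearest other value exceeded Dixon's 95% critical share of the group's range, where chance gives about 1 in 20 groups; classes mix stages, so a library can stand apart through its age. Percc1-/- P5 held 6 of the 11 gaps.

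Percc1-/- P5 was the high library of the younger class for Defa21 (0.985 FPKM, others 0 to 0.0712), Defa22 (1.39, others 0 to 0.214), Defa26 (1.81, others 0.0799 to 0.323), Slc10a2 (2.88, others 0.207 to 0.583) and Xist (0.59, others 0.169 to 0.185), and the low one for Lct (27, others 43.3). Wild-type P5 was the high one for Cyp4f14 (2.12, others 0.92 to 1.07).

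In the older class wild-type P10 was high for Afp (15 FPKM, others 1.45 to 2.58) and for Trim71 (0.824, others 0 to 0.0691). Percc1-/- P20 was high for Rdh7 (11.6, others 4.77 to 5.85), and wild-type P20 for Plb1 (30.6, others 0.685 to 2.46).

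The age change differed between lower and upper small intestine for Selm (3.96, adjusted p = 0.000311) and for Sycn (2.61, adjusted p = 0.0253), by limma's interaction. Selm was listed at 0 in both upper P15 libraries, which can be a failed estimate.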

How the results depend on the processing

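The 16 genes called between the classes kept their direction under every alternative, and their call in 200 of 418 pairs of gene and setting. Their number was 3 with a mean of at least 5 FPKM, 2 with no filter, 25 with no rescaling, 2, 7, 50 and 6 with P1, P5, P10 and P20 left out, 0 with the genotypes of a stage averaged or wild types only, 1 with percc1-/- only, 42 for the line on log2 day and 8 without genes listed at 0 in any library. Upper-quartile scaling gave 13 higher and 1 lower. Genotype out of the model gave 24, a stage block 12 and a ceiling correction 16. The step from P1 to P5 gave 1 gene with pseudocount 0.1, 0 with the filter at 5, 4 with no filter and 4 with no rescaling; P5 to P10 gave 1 with the filter at 5 and 15 with no rescaling; P10 to P20 gave 1 and 7. P20 against P1 gave 14 with no filter and 161 with no rescaling, its genes examined one by one keeping the call in 277 of 577 pairs and direction in all. The region difference gave 1 gene with the filter at 5, 4 with no filter, 6 without lower P20 and 1 without lower P10. Leaving out each library gave 0 to 66 genes between the classes, 0 to 8, 0 to 48 and 0 to 94 for the steps in order of age, 0 to 458 for P20 against P1, 0 to 2 for the genotype difference and 1 to 7 for the region difference. Many of these settings used fewer libraries or another number of genes, and counts moved both ways. What moved them was not tested. The ceiling, P20 against P1 and listed-0 alternatives were chosen after seeing the data. No paired analysis was possible because the labels give no replicate numbers. Depth limits low genes: values near 0 FPKM rest on few fragments.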
